A study of Homo sapiens with 17 samples.

Results

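MAGEA1, MAGEA3, MAGEA4, MAGEA6, MAGEA10, MAGEA12, MAGEC1 and MAGEC2 are 8 cancer-testis genes of the MAGE family. They were selected by symbol from the 34496 gene rows of one count table, and were chosen as a group because their measured levels differed between cell lines. All 8 symbols were found. MAGEA3, MAGEA4 and MAGEA6 were detected at 83.0 to 231 CPM (counts per 1000000 counts of the library, scaled as given in the next paragraph) in all 8 libraries of the Cal27 line. None of the 8 reached 1 CPM in the libraries of the SKN3 and BICR78 lines.

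The RNA libraries came from 3 head and neck cancer cell lines and were made after ribosomal RNA was removed. Untreated Cal27, untreated Cal27 NSD1KO, untreated SKN3 and untreated BICR78 had 1 library each. Cal27 in DMSO (the solvent control), Cal27 NSD1KO in DMSO and Cal27 NSD1KO treated with EPZ-6438 had 2 libraries each. NSD1KO is a knockout of NSD1, an enzyme that dimethylates histone H3 at lysine 36, and EPZ-6438 inhibits EZH2, the methyltransferase of Polycomb repressive complex 2. The dose and time of EPZ-6438, the number of NSD1KO clones and the passage of the lines were not stated in the labels, and parental Cal27 treated with EPZ-6438 was not analysed here. Total counts per library ran from 11745655 to 21738951, with the 4 untreated libraries at 17587063 or more. CPM values were scaled over the 10 libraries by the trimmed mean of M values (TMM). Intervals on single libraries are exact 95% Poisson intervals and cover counting error only. In bulk RNA, fewer cells that express a gene and less RNA per cell cannot be told apart.

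The labelled tissue was checked against markers. All 9 squamous epithelial markers were above 1 CPM in each of the 10 libraries, although their summed level ran from 2612 to 25140 CPM. In DMSO NSD1KO 7 of the 9 fell and 1 rose, against 19.5% lower and 16.4% higher over all tested genes. Of 12 male germ cell markers, none reached 1 CPM in a Cal27 or BICR78 library and 1, STRA8, did so in SKN3 at 1.05 CPM. Of 6 leukocyte markers, 2 or 3 were above 1 CPM in each library, with HLA-DRA and CD14 leading a sum of 45.7 to 237 CPM, while the pan-leukocyte marker PTPRC stayed at 7 counts or fewer. Of 6 fibroblast markers, 2 to 4 were above 1 CPM, with a sum of 7.53 to 55.5 CPM, and the 5 melanocyte markers summed to 1.90 to 6.04 CPM in all libraries but BICR78, where they summed to 48.0 CPM. NSD1 itself was counted at 114 ± 0.56 CPM (SD, n = 2) in DMSO Cal27 and at 165 ± 0.89 CPM in DMSO NSD1KO, a rise of 0.53 ± 0.0424 on the log2 scale (SE; edgeR adjusted p = 4.2e-08). A count over the whole gene does not show an edit, so it does not check the knockout label. NSD1 stood at 78.1 CPM in SKN3 and at 0.468 CPM in BICR78, against 149 CPM in untreated Cal27.

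Type I MAGE genes lie in clusters on the X chromosome and are normally transcribed in male germ cells, where their promoters are unmethylated. In most somatic cells those promoters carry DNA methylation and the genes are silent, and many tumours, squamous carcinomas among them, transcribe some of them again. Their proteins share a MAGE homology domain that binds E3 ubiquitin ligases of the RING type, and peptides from them are presented on HLA molecules, which made MAGE-A3 and MAGE-A4 targets for vaccines and engineered T cells. Type II MAGE genes, such as MAGED1 and MAGEF1, are transcribed widely in somatic tissue.

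The promoters are shown to set the identical windows of MAGEA3 and MAGEA6, both detected, beside that of MAGEA12, which lies between them and was not detected, and beside MAGEA4. RefSeq (GRCh38.p14) gave 11 windows of 300 bases, each from 250 bases before to 50 after a transcript start, for 6 of the 8 members. MAGEA3, MAGEA6, MAGEA12 and the downstream window of MAGEA4 are printed 5′ to 3′ on the gene's strand, with every CG dinucleotide in capitals. They lie at chrX:152698544-152698843 on the plus strand, chrX:152769640-152769939 on the minus strand, chrX:152733612-152733911 on the plus strand and chrX:151918038-151918337 on the plus strand.
MAGEA3: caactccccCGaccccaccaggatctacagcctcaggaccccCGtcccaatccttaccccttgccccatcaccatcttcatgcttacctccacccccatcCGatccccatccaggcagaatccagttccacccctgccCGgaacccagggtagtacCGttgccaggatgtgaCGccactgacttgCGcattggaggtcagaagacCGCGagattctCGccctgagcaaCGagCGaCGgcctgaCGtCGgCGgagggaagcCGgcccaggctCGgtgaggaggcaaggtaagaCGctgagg
MAGEA6: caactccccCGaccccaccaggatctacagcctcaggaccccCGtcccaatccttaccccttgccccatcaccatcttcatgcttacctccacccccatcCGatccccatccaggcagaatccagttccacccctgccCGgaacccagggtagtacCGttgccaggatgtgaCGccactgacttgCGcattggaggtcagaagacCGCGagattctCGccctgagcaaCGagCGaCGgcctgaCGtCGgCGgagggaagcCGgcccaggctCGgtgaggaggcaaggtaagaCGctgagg
MAGEA12: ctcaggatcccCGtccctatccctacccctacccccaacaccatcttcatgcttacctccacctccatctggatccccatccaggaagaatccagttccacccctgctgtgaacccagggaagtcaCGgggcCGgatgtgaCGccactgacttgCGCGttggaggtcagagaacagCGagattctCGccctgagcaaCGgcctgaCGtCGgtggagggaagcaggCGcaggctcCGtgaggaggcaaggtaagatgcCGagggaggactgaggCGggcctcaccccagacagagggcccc
MAGEA4: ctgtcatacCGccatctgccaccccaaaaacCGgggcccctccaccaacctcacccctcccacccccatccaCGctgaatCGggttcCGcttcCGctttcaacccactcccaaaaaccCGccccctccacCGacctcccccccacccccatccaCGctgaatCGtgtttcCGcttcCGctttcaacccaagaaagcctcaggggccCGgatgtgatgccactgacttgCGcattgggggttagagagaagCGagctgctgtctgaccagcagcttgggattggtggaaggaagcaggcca

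The MAGEA3 and MAGEA6 windows were identical at 300 of 300 bases. The MAGEA12 window matched the MAGEA3 window at 236 of 339 alignment columns (69.6%), and that of MAGEA4 at 181 of 344 (52.6%), while MAGEC1 and MAGEC2 matched MAGEA3 at 42.7% and 41.5% of columns. The windows were aligned end to end, so gaps and overhanging ends count as unmatched columns. The printed MAGEA12 window begins at a sequence that lies further inside the MAGEA3 window. These shares are thus lower than the identity of the stretch that the MAGEA12 and MAGEA3 windows share. MAGEA3 and MAGEA6 had 19 CG each, a number that 42.9% of the 35116 windows of all genes reached, against a median of 14 over all windows. The 5 MAGEA4 windows held 10 to 15 CG, the other MAGEA12 window 9, MAGEC1 14 and MAGEC2 10. The plot of CpG content sets these against all windows: the detected MAGEA4 overlapped the undetected MAGEA12, MAGEC1 and MAGEC2. CCGGAA, an ETS-type motif that itself contains a CG, was searched on both strands as this exact string. It occurred once in MAGEA3 and MAGEA6 and in none of the other members' windows, and 17.2% of all windows held it. Variants of the motif were not searched. CCGGAT, which differs in the last base, stands in the printed MAGEA12 and MAGEA4 windows. The search thus does not show that other ETS-type sites are absent there. TGACG, the half-site of a cAMP response element, which also contains a CG, occurred 2 times in MAGEA3, in MAGEA6 and in the printed MAGEA12 window, 3 times in MAGEC2 and 0 times in the MAGEA4 windows; 24.6% of all windows held it. DNA methylation was not analysed here.

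**Figure D1:**
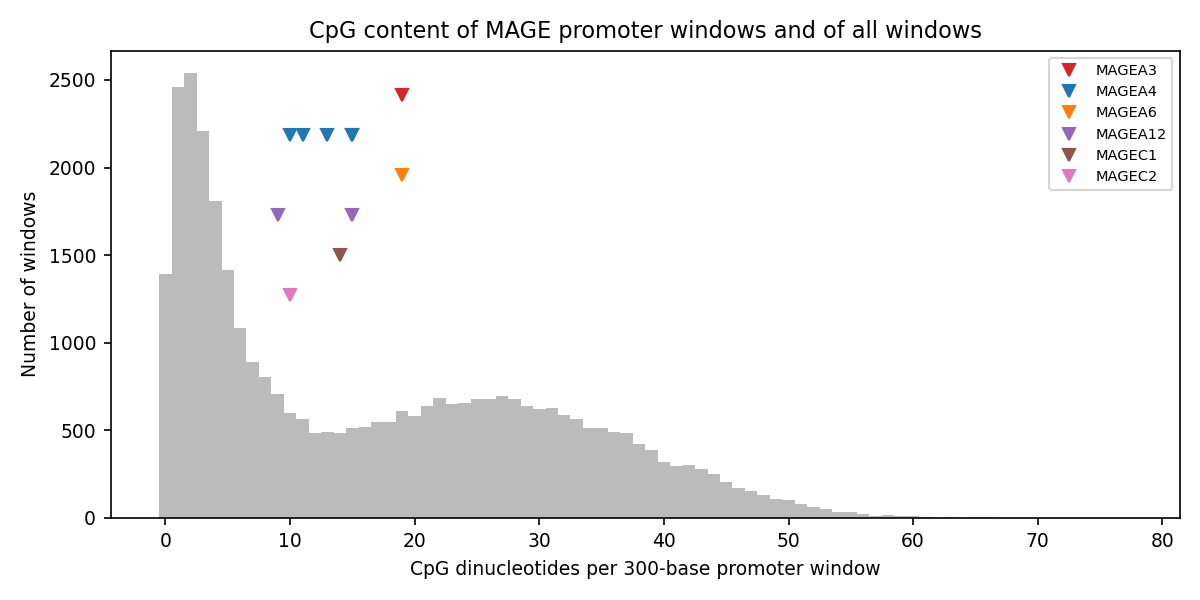
Number of RefSeq promoter windows (grey bars, y axis) by CG dinucleotides per 300-base window (x axis), with triangles at the counts of the members' own windows; the height of a triangle has no meaning, and 2 of the 5 MAGEA4 windows share a triangle at 15. MAGEA3 and MAGEA6 stand at 19, and the windows of the other 4 genes shown at 9 to 15.

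MAGEA3, whose protein binds the ubiquitin ligase TRIM28, gave 2141 counts in untreated Cal27 and 1977 in untreated NSD1KO. These were 102 CPM (97.6 to 106) and 89.7 CPM (85.8 to 93.8). In the DMSO and EPZ-6438 libraries MAGEA3 was at 114 and 111 CPM in Cal27, at 116 and 115 CPM in DMSO NSD1KO, and at 110 and 120 CPM in treated NSD1KO. The 6 libraries of the DMSO and EPZ-6438 experiment thus lay above both untreated libraries, and the treated pair spanned the other 4.

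MAGEA6, the near-identical neighbour of MAGEA3, gave 1877 counts (89.3 CPM) in untreated Cal27 and 1828 counts (83.0 CPM) in untreated NSD1KO. It stood at 96.0 and 98.9 CPM in DMSO Cal27, at 97.5 and 98.8 CPM in DMSO NSD1KO and at 104 and 102 CPM in treated NSD1KO. The order of the groups followed that of MAGEA3 in the untreated libraries, while in the treated pair MAGEA6 lay above all others.

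MAGEA4, a MAGE protein known to bind and stabilise the ubiquitin ligase RAD18, gave 3642 counts (173 CPM; 168 to 179) in untreated Cal27 and 3911 counts (178 CPM; 172 to 183) in untreated NSD1KO. It stood at 221 and 218 CPM in DMSO Cal27, at 212 and 216 CPM in DMSO NSD1KO and at 231 and 225 CPM in treated NSD1KO. The 6 libraries of the experiment lay within 212 to 231 CPM, and the DMSO difference between Cal27 and NSD1KO was not called (edgeR adjusted p = 0.34). Across the 8 Cal27 libraries the median was 217 CPM for MAGEA4, 112 CPM for MAGEA3 and 98.2 CPM for MAGEA6; these are not per transcript length, so the level of MAGEA4 is not ranked against the other two.

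**Figure D2:**
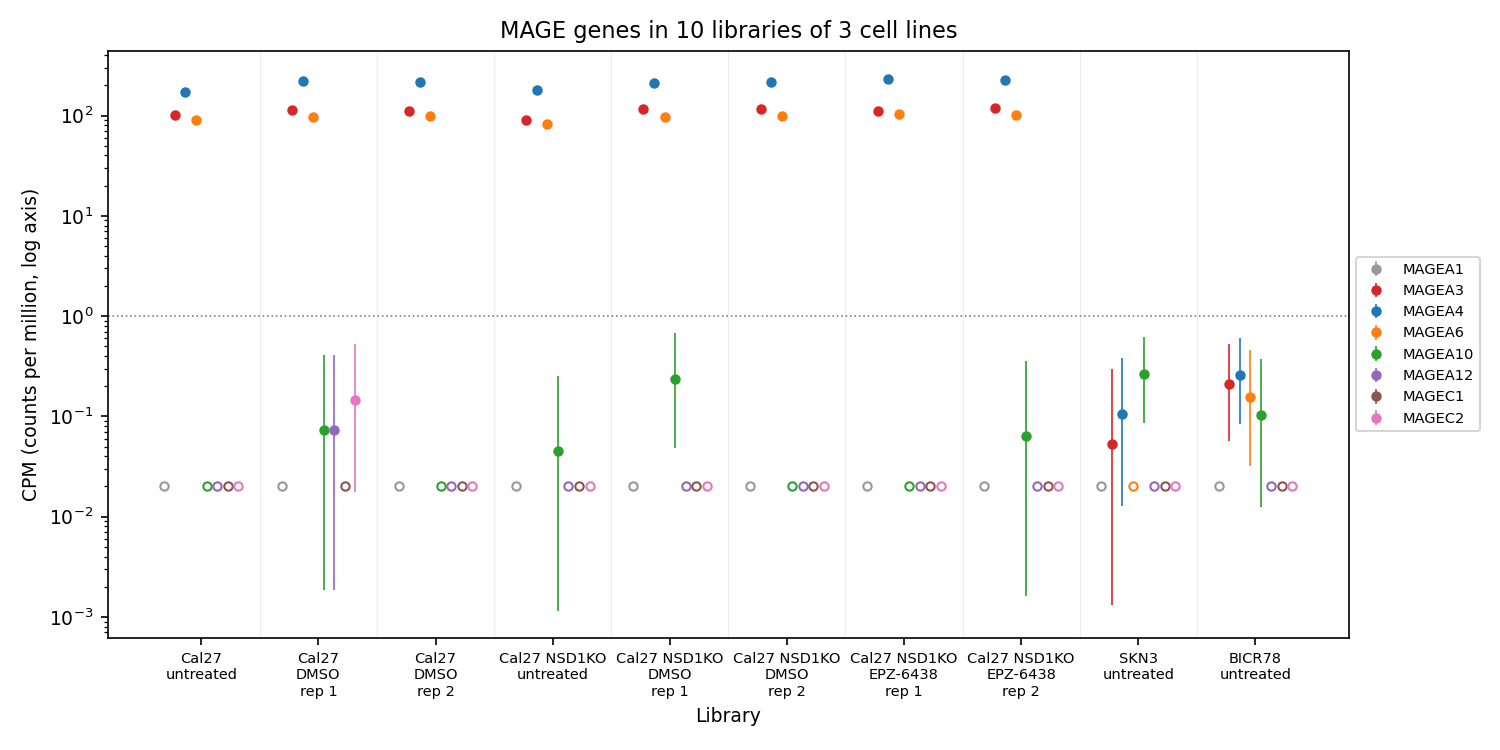
CPM (y axis, log scale) of the 8 members in each of the 10 libraries (x axis); bars are exact 95% Poisson intervals, open circles at 0.02 mark libraries with 0 counts, and the dotted line is 1 CPM. MAGEA3, MAGEA4 and MAGEA6 lie between 83.0 and 231 CPM in all Cal27 libraries and below 1 CPM in SKN3 and BICR78.

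SKN3 and BICR78 gave almost no reads for the same genes. SKN3 had 1 count of MAGEA3, 2 of MAGEA4 and 0 of MAGEA6. BICR78 had 4 counts of MAGEA3, 5 of MAGEA4 and 3 of MAGEA6. Untreated Cal27 was thus higher than BICR78 by 490-fold for MAGEA3 (191 to 1800), 667-fold for MAGEA4 (285 to 2050) and 573-fold for MAGEA6 (196 to 2780). Against SKN3 the ratio was 1930 for MAGEA3 (347 to 76400) and 1640 for MAGEA4 (455 to 13600), and MAGEA6, with 0 counts, was at least 565-fold lower in SKN3 when a count of 0 is set to 3 counts; the lower limit of the exact 95% interval was 459-fold. Each line had 1 untreated library, and the members were chosen across lines, so the ratios describe these libraries and carry no test. At these counts the order of SKN3 and BICR78 was within counting error for each of the 3 genes.

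Among all genes with at least 10 counts in 1 of the 2 libraries compared, 7.83% were 4-fold or more lower and 11.8% 4-fold or more higher in SKN3 than in Cal27. The shares were 3.67% and 10.2% in BICR78, and 4.27% and 2.1% in untreated NSD1KO. MAGEA3, MAGEA4 and MAGEA6, which were the only members with 10 counts in any library, were 4-fold or more lower in SKN3 and BICR78 and in neither direction in NSD1KO. Against SKN3 and BICR78 these genes passed the limit of 10 counts through Cal27 alone, and the members were chosen across lines. Setting them beside the shares of all genes is thus a description and no test. Untreated Cal27 over untreated NSD1KO was 1.14 (1.07 to 1.21) for MAGEA3, 0.976 (0.933 to 1.02) for MAGEA4 and 1.08 (1.01 to 1.15) for MAGEA6.

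The other 5 members were at or near 0 everywhere. MAGEA10 was counted 5 times in SKN3 (0.264 CPM), 3 times in 1 DMSO NSD1KO library, 2 times in BICR78, once in each of 3 Cal27 or NSD1KO libraries and not at all in the other 4. MAGEA12 had a single count and MAGEC2 had 2 counts, all in the first DMSO Cal27 library. MAGEA1 and MAGEC1 had 0 counts in all 10 libraries. For a count of 0, the limit of 3 counts is 0.136 to 0.256 CPM in these libraries, and the upper end of the exact 95% Poisson interval is 0.167 to 0.315 CPM.

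The 3 detected genes made up nearly the whole type I MAGE signal of Cal27. Of 26 type I genes in the table, they took 99.84% of the counts in untreated NSD1KO, the lowest share among the 8 Cal27 libraries, and all 5885 counts in the second DMSO NSD1KO library. The other 23 type I genes together had 0 to 12 counts in those libraries. In SKN3 the 3 genes took 3 of 23 type I counts and in BICR78 12 of 22. No single other type I gene exceeded 5 counts in any library, a number reached by MAGEA10, MAGEB2 and MAGEB10, and MAGEA2, MAGEA9 and MAGEA11 stayed at 2 or fewer. MAGEA2 and MAGEA9 have near-identical copies, MAGEA2B and MAGEA9B; those copies gave at most 2 and 4 counts.

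The knockout comparison asked how the members differed between NSD1KO and parental Cal27, both in DMSO. MAGEA3 differed by 0.03 ± 0.048 on the log2 scale (SE; 95% interval -0.07 to 0.13; edgeR adjusted p = 0.63). MAGEA4 differed by -0.04 ± 0.033 (-0.11 to 0.03; adjusted p = 0.34) and MAGEA6 by 0.00 ± 0.044 (-0.09 to 0.10; adjusted p = 0.98). These intervals correspond to ratios between 0.925 and 1.1. None of the 3 members that passed the filter on low counts was called, at an unadjusted p under 0.05 either, and DESeq2 called none of them. Of the 13241 genes tested, 16.4% were called higher and 19.5% lower in NSD1KO. With library size alone as the scaling, the 2169 higher and 2580 lower calls became 2978 and 2088. The members' median size of change was 0.0333 on the log2 scale, against 0.173 over all tested genes.

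The inhibitor comparison set NSD1KO in EPZ-6438 against NSD1KO in DMSO; it shares the DMSO NSD1KO libraries with the knockout comparison. MAGEA4 rose from 214 ± 2.8 to 228 ± 4.3 CPM (SD, n = 2), a log2 change of 0.09 ± 0.033 (0.02 to 0.16; edgeR adjusted p = 0.027), or 1.07-fold (1.02 to 1.12). The call was lost with DESeq2 (adjusted p = 0.10), without either DMSO NSD1KO library (0.15 without the first and 0.078 without the second) and without the first EPZ-6438 library (0.13). In the same libraries the 9 squamous markers summed to 4053 and 4210 CPM in DMSO and to 2612 and 2638 CPM in EPZ-6438. The 6 leukocyte markers, of which CD14 and HLA-DRA rose, summed to 55.7 and 57.2 CPM and to 229 and 237 CPM, and CD3E had 1 count or fewer. The 6 fibroblast markers, of which 4 rose, summed to 9.97 and 7.53 CPM and to 21.4 and 25.2 CPM. The part of these shifts in the MAGEA4 value was not tested. MAGEA6 went from 98.2 ± 0.92 to 103 ± 1.1 CPM, a log2 difference of 0.07 ± 0.044 that was not called (adjusted p = 0.20). MAGEA3 stood at 115 ± 0.33 and 115 ± 7.6 CPM, a difference of 0.00 ± 0.048 (-0.10 to 0.10; adjusted p = 0.97). In this comparison 25.6% of all tested genes were called higher and 23.9% lower, so 1 member in 3 is near that background. The median size of change was 0.07 for the members and 0.231 for all tested genes.

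Treated NSD1KO against parental Cal27 in DMSO, which shares libraries with both other comparisons, gave 0.04 for MAGEA3 (adjusted p = 0.55), 0.05 for MAGEA4 (0.22) and 0.07 for MAGEA6 (0.18) by edgeR. None was called, at an unadjusted p under 0.05 or by DESeq2 either, while 26.1% of all genes were called higher and 25.9% lower. With library size alone, the 3456 higher and 3428 lower calls became 4016 and 2815, and MAGEA4 (0.10, adjusted p = 0.014) and MAGEA6 (0.13, adjusted p = 0.024) were called higher. The plot of log2 changes shows each member inside the middle 50% of all tested genes in all 3 comparisons.

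**Figure D3:**
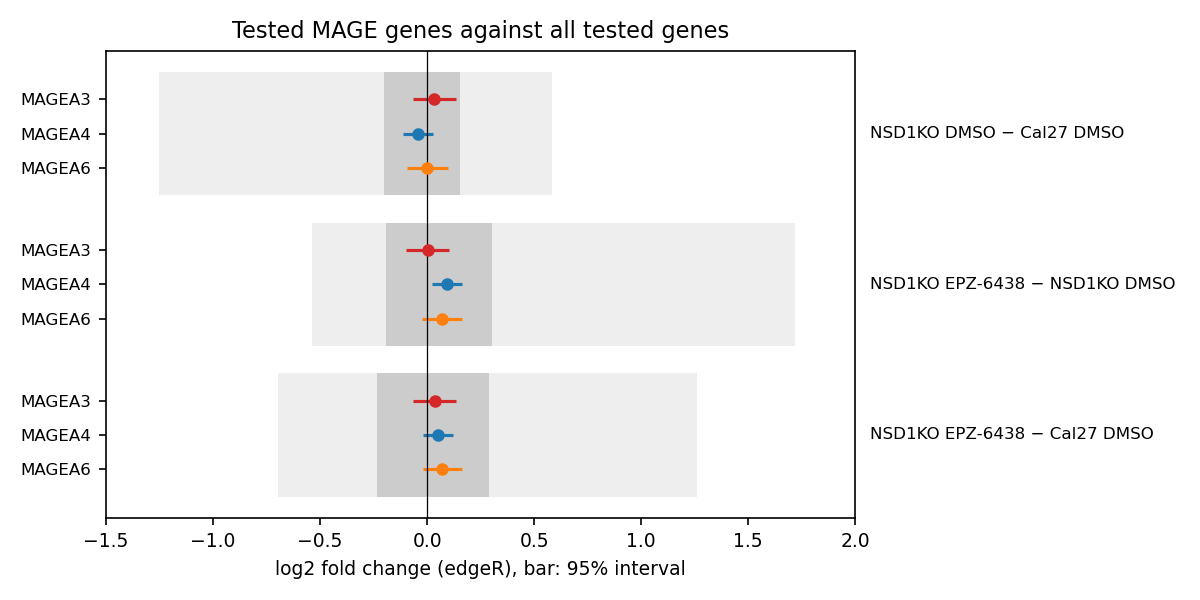
log2 fold change (x axis, edgeR; bars are 95% intervals) of MAGEA3, MAGEA4 and MAGEA6 in 3 comparisons of 2 libraries against 2. The dark band holds the middle 50% and the light band the middle 90% of all 13241 tested genes; in the knockout comparison the light band runs from -1.25 to 0.58, and every member lies within 0.10 of 0.

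MAGEA3 and MAGEA6 have gene spans of the same length, 3554 bases, and read counts split between such copies are uncertain, since how reads that fit both were treated is not given in the sources used here. MAGEA6 took 45.8% to 48.6% of the pair's counts in the 8 Cal27 libraries, with a median of 46.5%. The lowest and highest ends of the exact 95% binomial intervals were 43.9% and 50.6%. The 8 intervals overlapped across genotype and treatment. With the pair summed to 1 gene, the log2 difference was 0.02 ± 0.0341 in the knockout comparison (edgeR adjusted p = 0.71), 0.03 ± 0.0339 with EPZ-6438 (adjusted p = 0.43) and 0.05 ± 0.0339 between treated NSD1KO and Cal27 (adjusted p = 0.21). MAGEA3 and MAGEA6 were thus not called alone or as a sum in any of the 3 comparisons.

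On the X chromosome (GRCh38.p14) the MAGEA members lie on one stretch of 1271 kb, from MAGEA4 at chrX:151912474-151925170 to MAGEA1 at chrX:153179284-153183880. MAGEA10 is at chrX:152133310-152138577, MAGEA3 at chrX:152698794-152702347, MAGEA12 at chrX:152733757-152737669 and MAGEA6 at chrX:152766136-152769689. MAGEC1 at chrX:141903894-141909374 and MAGEC2 at chrX:142202342-142205290 form a separate pair with no other gene of the table between them. MAGEA12, with its single count, lies between MAGEA3 and MAGEA6, so detected and undetected members alternate along the stretch.

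The table held 24 genes of the MAGEA stretch, the 6 members and 18 others. In untreated Cal27, 10 of the 24 reached 1 CPM, against 3 in SKN3 and 4 in BICR78. CSAG3, another cancer-testis gene with a near-identical copy (CSAG2), lies between MAGEA12 and MAGEA6 and had 8.23 CPM in Cal27, 0 counts in SKN3 (at least 52.1-fold lower with 3 counts in place of 0, and 41.9-fold by the exact limit) and 0.156 CPM in BICR78 (52.8-fold lower, 17.8 to 258). GABRE, GABRA3 and GABRQ, which encode subunits of GABA-A receptors, were also higher in Cal27. GABRE was at 38.5 CPM in Cal27, 0.369 CPM in SKN3 and 8.32 CPM in BICR78; GABRA3 was at 4.52, 0.211 and 0.988 CPM, and GABRQ at 3.43, 0.105 and 0.104 CPM. By contrast CETN2, a centrosome gene, had 31.0, 17.3 and 35.3 CPM, and NSDHL, an enzyme of cholesterol synthesis, 31.8, 30.3 and 37.9 CPM. The plot of the stretch shows CETN2, NSDHL and ZNF185, past MAGEA6, at like levels in the 3 lines, with CETN2 lowest in SKN3.

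**Figure D4:**
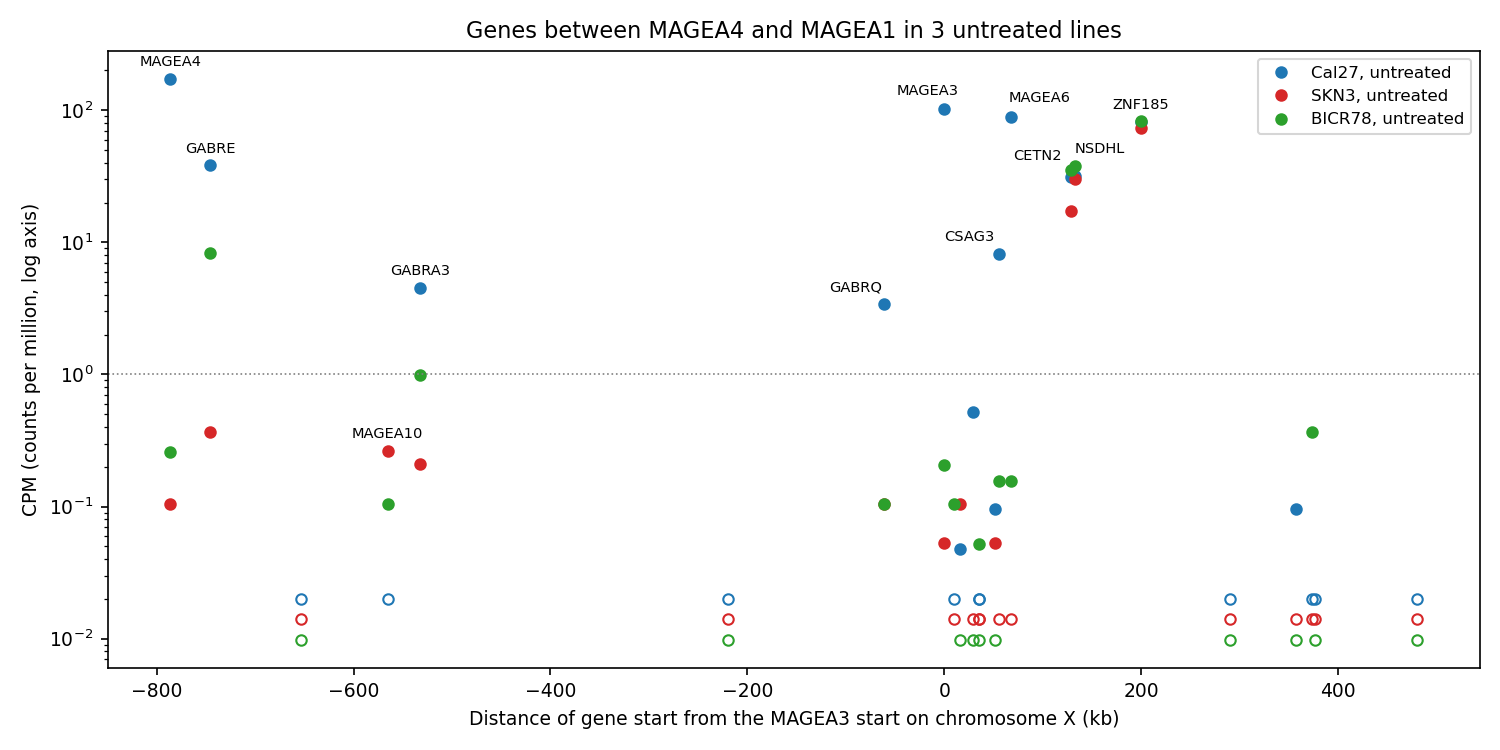
CPM (y axis, log scale) in the untreated Cal27, SKN3 and BICR78 libraries of the 24 genes between MAGEA4 and MAGEA1, by distance of the gene's start from the start of MAGEA3 in kb (x axis). Open circles in 3 rows below 0.03 mark 0 counts, 1 row for each line; MAGEA4, MAGEA3 and MAGEA6 are above 80 CPM in Cal27 alone, while CETN2, NSDHL and ZNF185 are above 17 CPM in the 3 lines.

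Several neighbours were called in the DMSO and EPZ-6438 libraries, as were many genes elsewhere. Of all tested genes, 16.4% were called higher and 19.5% lower in NSD1KO, and 25.6% and 23.9% with EPZ-6438. CSAG3 had 9.24 ± 1.4 CPM in DMSO Cal27, 9.08 ± 0.035 in DMSO NSD1KO and 16.2 ± 0.099 in treated NSD1KO (SD, n = 2 each), and rose with EPZ-6438 by 0.84 ± 0.129 on the log2 scale (edgeR adjusted p = 4.4e-05). In the untreated libraries CSAG3 was 2.93-fold lower in NSD1KO than in Cal27 (2.18 to 3.98), while in DMSO the difference was -0.03 (adjusted p = 0.87). GABRE fell by 0.82 ± 0.117 in NSD1KO (adjusted p = 3.3e-05) and rose with EPZ-6438 by 1.16 ± 0.113 (adjusted p = 2.5e-07), and GABRQ rose with EPZ-6438 by 1.12 ± 0.258 (adjusted p = 0.0017). CSAG1 had 1 and 4 counts in DMSO NSD1KO and 12 and 13 in treated NSD1KO (adjusted p = 0.022), a call that was lost with DESeq2 and without 3 of the libraries in turn. CETN2 fell by 0.28 ± 0.0686 in NSD1KO (edgeR adjusted p = 0.0039) and rose by 0.23 ± 0.0689 with EPZ-6438 (adjusted p = 0.01). GABRA3 and NSDHL were called in neither of these comparisons. ZNF185 stood at 38.5 and 38.5 CPM in DMSO Cal27, 29.0 and 29.2 in DMSO NSD1KO and 47.8 and 52.7 in treated NSD1KO. Its test is not reported here. MAGEA4, MAGEA3 and MAGEA6, on the same stretch, lay within 0.10 of 0 on the log2 scale in the same comparisons. The difference between members and neighbours was not tested.

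The members were chosen on their levels across lines, so the genes that share their pattern are given as a description. Of 6787 genes at 20 CPM or more in all 8 Cal27 libraries, 7 (0.103%) were also under 0.5 CPM in both other lines; these limits were chosen after the values were seen. MAGEA4, MAGEA3, MAGEA6, TRIB2, the tumour suppressor CDKN2A and the chemokine gene CCL2 were among them. The lowest Cal27 level was 173 CPM for MAGEA4, 89.7 for MAGEA3 and 83.0 for MAGEA6, against 32.5 for TRIB2, 31.5 for CDKN2A and 28.3 for CCL2. TRIB2, CDKN2A and CCL2 lie on autosomes.

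Likeness was described by Pearson's r of log2 CPM over the 10 libraries among 12387 genes with at least 100 counts in a library. The value rests on 8 Cal27 libraries against 2 of other lines and carries no test. The members were most like each other, with r of 0.9998 for MAGEA3 and MAGEA6, 0.9997 for MAGEA3 and MAGEA4 and 0.9995 for MAGEA4 and MAGEA6. Outside the members, GTF2H2B (0.9972), CMTM7 (0.997) and ESRRA (0.9967) came closest to MAGEA3, and the same 3 genes to MAGEA4 (0.9973, 0.9962 and 0.9958). CMTM7 (0.9963), SF3B2 (0.9962) and ESRRA (0.9959) came closest to MAGEA6. The size of the step was not the same: CMTM7 ran from 17.6 to 26.6 CPM in Cal27 against 0.0527 and 0.104 CPM in SKN3 and BICR78, while ESRRA, a nuclear receptor gene, ran from 153 to 173 CPM against 41.4 and 45.1 CPM. Likeness by r reads the shape of the pattern and not its size.

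Of 11 type II MAGE genes listed, 9 were in the table and 5 were tested. In NSD1KO 3 of the 5 fell and none rose, against 16.4% higher and 19.5% lower over all tested genes, and the median log2 change was -0.298 against -0.00613. With EPZ-6438 2 of the 5 rose and none fell, against 25.6% higher and 23.9% lower over all tested genes, and the median was 0.277 against 0.00291.

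MAGED1, an adaptor protein in neurotrophin receptor signalling, had 128 and 133 counts in DMSO Cal27, 6 and 2 in DMSO NSD1KO and 5 and 5 in treated NSD1KO. The 2 genotypes did not overlap, and MAGED1 fell by 4.97 ± 0.349 on the log2 scale in NSD1KO (edgeR adjusted p = 7.1e-09). The change was -5.97 without the first and -4.35 without the second DMSO NSD1KO library. The difference with EPZ-6438 was 0.28 ± 0.626 (adjusted p = 0.75). The untreated libraries gave 5.19 CPM in Cal27 and 1.5 CPM in NSD1KO, a 3.46-fold difference (2.33 to 5.28). SKN3 at 30.9 CPM and BICR78 at 48.5 CPM stood above all Cal27 libraries, the opposite order of lines to MAGEA3, MAGEA4 and MAGEA6.

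MAGEF1, which binds the ubiquitin ligase NSMCE1, had 40.2 ± 0.96 CPM in DMSO Cal27, 24.5 ± 1.7 in DMSO NSD1KO and 38.2 ± 4.1 in treated NSD1KO (SD, n = 2 each). It fell by 0.72 ± 0.0853 in NSD1KO (edgeR adjusted p = 4.2e-06) and rose with EPZ-6438 by 0.63 ± 0.0861 (adjusted p = 1.2e-05), 2 values that share the DMSO NSD1KO libraries. MAGED2 rose with EPZ-6438 by 0.36 ± 0.0611 (adjusted p = 0.00012), and its difference in NSD1KO was 0.14 (adjusted p = 0.11). NSMCE3, a subunit of the SMC5/6 complex, fell by 0.30 ± 0.0912 in NSD1KO (adjusted p = 0.017), a call lost with DESeq2 and without the first library of either group. MAGEE1 was the fifth gene tested and was called in neither comparison. The untreated libraries, which carry no test, gave 94 counts of MAGEE1 in Cal27 and 26 in NSD1KO, 3.79-fold lower (2.43 to 6.1). The plot of type II genes shows MAGED1 as the only one of the 5 under 1 CPM in any library.

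**Figure D5:**
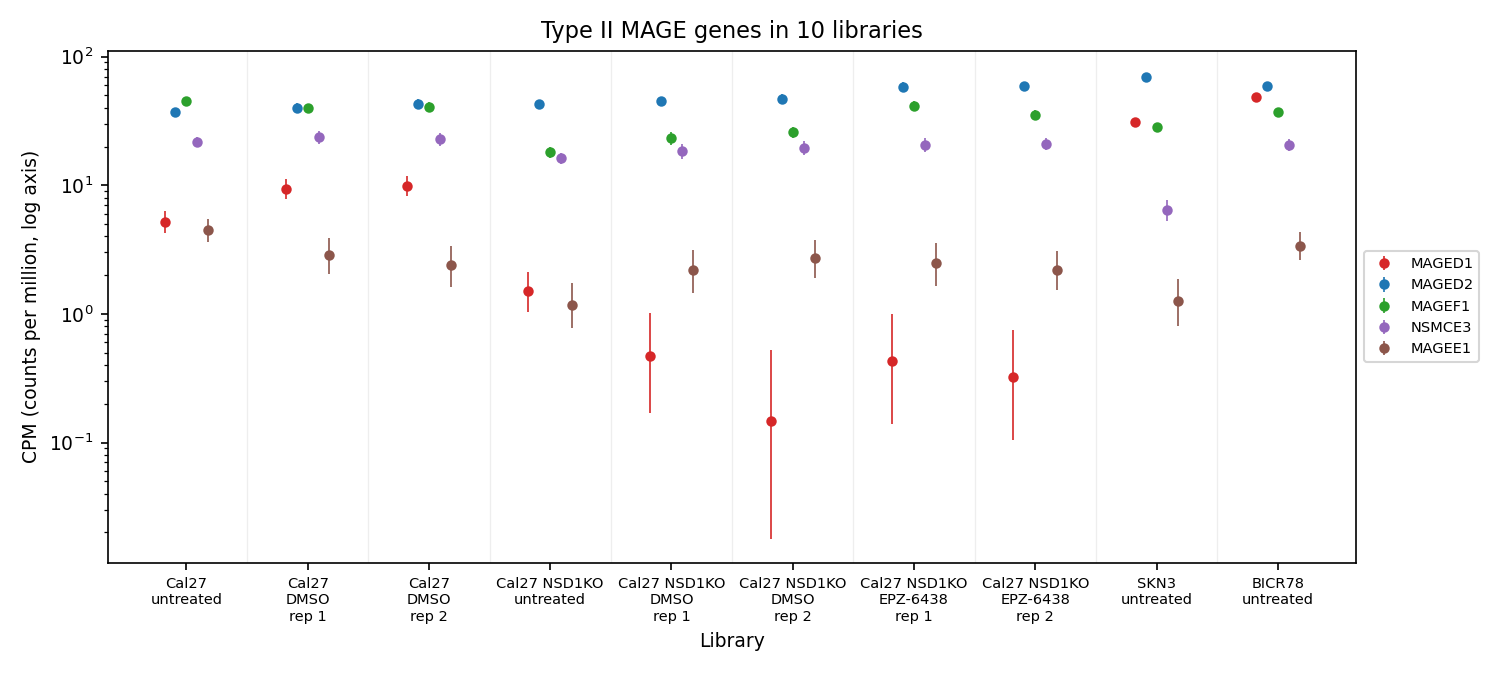
CPM (y axis, log scale) of 5 type II MAGE genes in each of the 10 libraries (x axis), with exact 95% Poisson intervals. MAGED1 runs from 0.146 CPM in a DMSO NSD1KO library to 48.5 CPM in BICR78, while MAGED2 stays between 37.4 and 69.3 CPM.

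Other X-linked cancer-testis genes were almost as low as the undetected members. Of 53 listed, all were in the table, but 2, CSAG3 and CSAG1, had enough counts to be tested; neither was called in NSD1KO and both rose with EPZ-6438, with the limit given above for CSAG1. CTAG1B, which encodes the tumour antigen NY-ESO-1, had 2 counts at most, and SSX1 likewise. Of 38 autosomal cancer-testis genes 37 were in the table and 17 were tested. In NSD1KO 4 rose and 1 fell (all tested genes: 16.4% and 19.5%), and with EPZ-6438 3 rose and 8 fell (25.6% and 23.9%). CEP55, a cytokinesis gene, fell by 0.21 ± 0.0419 in NSD1KO (edgeR adjusted p = 0.00067) and by 0.36 ± 0.0441 with EPZ-6438 (adjusted p = 4.3e-06). TEX15, a germ cell gene, had 1 and 0 counts in DMSO NSD1KO and 34 and 26 in treated NSD1KO (adjusted p = 1.7e-05). Levels across lines differed from gene to gene. PRAME, a tumour antigen gene, had 56 counts in untreated Cal27, 1 in SKN3 (a ratio of 50.6, 8.71 to 2030) and 3 in BICR78 (17.1, 5.55 to 85.4). Untreated Cal27 was thus the highest of the lines, as for MAGEA3. Unlike MAGEA3, PRAME was 5.34-fold lower (2.77 to 11.3) in untreated NSD1KO, with 11 counts. TDRD1, a germ cell Tudor-domain gene, had 59.4 CPM in SKN3, 0.156 CPM in BICR78 and 0 counts in all 8 Cal27 libraries.

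Of 12 known partners of MAGE proteins, 9 were at 1 CPM or more in untreated Cal27, 10 in SKN3 and 9 in BICR78. Of the 12, 10 were tested. In NSD1KO 1 of the 10 rose and 4 fell (all tested genes: 16.4% and 19.5%). With EPZ-6438 2 rose and 2 fell (25.6% and 23.9%), and only these EPZ-6438 counts are near the share of all genes. TRIM28, the ligase bound by MAGEA3 and MAGEC2, was at 541 CPM in untreated Cal27, 570 in SKN3 and 411 in BICR78, so it did not follow MAGEA3 across lines. TRIM28 differed by -0.05 in NSD1KO (edgeR adjusted p = 0.32) and fell by 0.12 ± 0.035 with EPZ-6438 (adjusted p = 0.0074), a call lost without the first EPZ-6438 library (adjusted p = 0.077). PRKAA1 and PRKAA2 encode the catalytic subunits of AMPK, which the MAGEA3 and MAGEA6 complex with TRIM28 is known to target. PRKAA1 fell by 0.29 ± 0.0495 in NSD1KO (adjusted p = 0.00023), while the untreated libraries stood at 97.2 CPM in Cal27 and 100 CPM in NSD1KO (ratio 0.968, 0.911 to 1.03). PRKAA2 had 60 and 71 counts in DMSO Cal27, 4 and 9 in DMSO NSD1KO and 47 and 59 in treated NSD1KO; it fell by 3.29 ± 0.349 (adjusted p = 1.3e-06) and rose by 2.97 ± 0.36 (adjusted p = 3.2e-06). Without the second DMSO NSD1KO library these were -3.93 and 3.60. For PRKAA2 the untreated libraries gave a smaller difference, 107 counts in Cal27 and 64 in NSD1KO, 1.75-fold lower (1.27 to 2.43). HUWE1, a ligase bound by MAGEA11, rose in NSD1KO by 0.36 ± 0.0281 (adjusted p = 2.5e-08), and TRIM31, a ligase bound by MAGEA1, had 0 counts in both DMSO NSD1KO libraries against 16 and 19 in the treated ones (adjusted p = 9.2e-05).

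Genes of DNA methylation are given because type I MAGE promoters are known to be held silent by it. Of 14 listed, 13 were tested; in NSD1KO 4 rose and 2 fell (all tested genes: 16.4% and 19.5%), and with EPZ-6438 5 rose and 4 fell (25.6% and 23.9%). DNMT3A, a de novo methyltransferase, had 7.76 CPM in untreated Cal27, 44.8 in SKN3 and 20.9 in BICR78, and DNMT3B had 10.8, 30.0 and 28.9 CPM. Both were thus lower in the line with MAGEA3, MAGEA4 and MAGEA6 than in the other two, in 1 library each. DNMT3A fell by 0.87 ± 0.195 in NSD1KO (edgeR adjusted p = 0.0021) and rose with EPZ-6438 by 0.88 ± 0.195 (adjusted p = 0.0012). DNMT3B fell by 0.65 ± 0.172 (adjusted p = 0.0066; 0.067 with DESeq2) and rose by 0.80 ± 0.169 (adjusted p = 0.00084). DNMT1, the maintenance enzyme, had 296 CPM in Cal27, 194 in SKN3 and 229 in BICR78; it rose in NSD1KO by 0.11 ± 0.0324 (adjusted p = 0.014), a call lost without the second DMSO Cal27 library (0.17) and without the first DMSO NSD1KO library (0.10), and fell by 0.14 ± 0.0325 with EPZ-6438 (adjusted p = 0.0016). UHRF1, which guides DNMT1 to replicated DNA, had 153 CPM in Cal27, 85.1 in SKN3 and 147 in BICR78. UHRF1 rose in NSD1KO by 0.20 ± 0.0401 (edgeR adjusted p = 0.00076) and fell with EPZ-6438 by 0.30 ± 0.0404 (adjusted p = 1.2e-05). In the untreated libraries both were lower in NSD1KO, the opposite of the DMSO direction, DNMT1 by 1.14-fold (1.1 to 1.18) and UHRF1 by 1.28-fold (1.21 to 1.35). The part of these genes in the members' levels was not tested.

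Of 16 genes of Polycomb repressive complex 2 and of methylation at lysine 36, all were tested; 7 rose and none fell in NSD1KO (all tested genes: 16.4% and 19.5%), and 1 rose and 4 fell with EPZ-6438 (25.6% and 23.9%). EZH2, the target of EPZ-6438, differed in NSD1KO by 0.14 ± 0.0599 (edgeR adjusted p = 0.077), which was called with library size alone (0.017) and in a fit of the 2 groups alone (0.047). MAGEA3, MAGEA4 and MAGEA6 stayed within 83.0 to 231 CPM across these 8 libraries.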

How the data were processed

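RNA libraries (10) of 3 head and neck cancer cell lines were analysed; 7 CUT&Tag samples of the series were not analysed here. The authors deposited raw read counts per gene, with 0 columns that belong to no sample. The submitters' processing notes name CASAVA 1.7, HISAT2 2.1.0, featureCounts 1.6.1, Picard 2.23.1 and hg38. What annotation and strand setting were used, and how reads that fit several genes were treated, is not given in the sources used here. Of 34496 gene rows, 12036 were 0 in all 10 libraries.

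The members and the gene lists were chosen with earlier results of these data known. The 6 DMSO and EPZ-6438 libraries were fitted together with edgeR 4.0.16 in R 4.3.3 (TMM scaling, filterByExpr, quasi-likelihood test, Benjamini-Hochberg adjustment over 13241 genes, threshold 0.05); a gene that "rose" or "fell" passed this. DESeq2 1.42.0, other scalings, filters and prior counts, a replicate block, fits of 2 groups and each library left out were alternatives. No label says that replicates were separate cultures, so p-values measure only how far these libraries differ, a spread that may be technical. Total counts were 11745655 to 21738951. Lines with 1 library have no test: their ratios carry exact conditional binomial intervals. The text names the 8 members, NSD1, EZH2, X-chromosome neighbours, the 3 genes most like each detected member, and from each list those with the highest level or lowest adjusted p; CTAG1B, SSX1, TRIB2, CDKN2A and CCL2 were named after their values were seen, and 1 gene with the same pattern across lines is not reported here. Tested on simulated data with 200 changed genes, the knockout fit recovered 54% at 1.25-fold and 100% at 4-fold (13014 genes), with 7.7% of calls among unchanged genes; the inhibitor fit recovered 46% and 98% (13027 genes), with 14%. Promoter windows came from RefSeq (GRCh38.p14; 35116 windows, 27305 genes); MAGEA1 and MAGEA10 had no entry.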

Additional observations from a re-analysis of the deposited data

Results flagged for a closer look

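When NSD1KO was set against Cal27, the small differences of MAGEA3 and MAGEA4 had opposite signs in the untreated and the DMSO libraries. For MAGEA3 the untreated NSD1KO library was lower than the untreated Cal27 library by a log2 ratio of -0.183, while both DMSO NSD1KO libraries (116 and 115 CPM) were above both DMSO Cal27 libraries (114 and 111 CPM). For MAGEA4 the untreated log2 ratio was 0.0347, while both DMSO NSD1KO libraries (212 and 216 CPM) were below both DMSO Cal27 libraries (221 and 218 CPM). Neither DMSO difference was called (edgeR adjusted p = 0.63 for MAGEA3 and 0.34 for MAGEA4). The untreated ratio of Cal27 over NSD1KO for MAGEA4 was 0.976, with an interval of 0.933 to 1.02 that includes no difference. How many of all genes show such opposite signs was not counted. The untreated groups have 1 library each, and the difference between the 2 settings was not tested. With library size alone as the scaling the untreated log2 ratios were -0.0785 and 0.139.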

How the results depend on the processing

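The counts of genes called stayed within 1.5 times the reported ones under every alternative run: 3248 to 5066 for the knockout (4749 reported), 4924 to 6763 for the inhibitor (6564) and 5250 to 6987 for treated NSD1KO against Cal27 (6884). With the replicate block they were 4512, 6370 and 6718; same-numbered libraries did not deviate together (r of 0.013, -0.0468 and 0.00157 over 13241 genes), so the numbers were not taken as pairs, and MAGEA4 with EPZ-6438 stayed called with the block (adjusted p = 0.033). No value that changed sign was called. With library size alone, which moved the median of all genes in the knockout from -0.00613 to 0.0448, the knockout differences became 0.008232 for MAGEA4, 0.01638 for CSAG3 and 0.003739 for TRIM28. With at least 50 counts in 2 libraries MAGEA6 in the knockout was -0.00825, and with DESeq2 MAGEA3 with EPZ-6438 was -0.002075. Leaving out 1 library at a time gave -0.01833 to 0.0235 for MAGEA6 and -0.1767 to 0.1254 for CSAG3 in the knockout, -0.07315 to 0.06205 for MAGEA3 and -0.343 to 1.279 for MAGED1 with EPZ-6438, and -0.03902 to 0.1006 for MAGEA3 in treated NSD1KO against Cal27; an arm left with 1 library is assumed to vary like the others. The causes were not tested. The adjusted p of MAGEA4 with EPZ-6438 ran from 0.0076 to 0.15. Also with library size alone, MAGED2 in the knockout was called (adjusted p = 0.029). At 2 libraries a group, the members' 95% intervals lay between ratios of 0.925 and 1.12, and differences inside an interval are unresolved. Only the interval of MAGEA4 with EPZ-6438 (1.02 to 1.12) left out a ratio of 1. MAGEA1, MAGEA10, MAGEA12, MAGEC1 and MAGEC2 had too few counts to test.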
